A study of Kluyveromyces lactis with 17 samples.

Results

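MEP3 (KLLA0_B11033g) is annotated in the RefSeq assembly ASM251v1 of the yeast Kluyveromyces lactis as an ammonium permease, a membrane protein that carries ammonium into the cell. It is 1 of 5335 genes in the deposited count table, of which 5224 had enough reads to be tested. The gene was chosen by its measured fold changes at low against high nicotinic acid, which differed between a sir2Δ strain and a WT strain, so its own levels and fold changes are given as a description, with no test and no p-value. All 17 libraries were used.

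RNA came from sir2Δ cells (LRY2993, MATα sir2Δ hmlΔ hmrΔ) and from WT cells (LRY2992, MATa SIR2 hmlΔ hmrΔ). Each strain was grown overnight with 400 µg/L nicotinic acid and then held for 4 h at 15, 45, 135 or 400 µg/L, which gave 8 groups. Cultures were grown at 30 °C in minimal medium with 20 g/L glucose and with 5 g/L ammonium sulfate as the nitrogen source, and were collected in mid-log phase. Neither strain has the silent loci HML and HMR, each is a single named strain, and they differ in mating type as well as in SIR2, so the effects of SIR2 and of mating type cannot be told apart here. The series text gives 2 independent biological replicates a group. Libraries are numbered 1 to 8, with a second library of number 1, called 1R, in WT at 400 µg/L. The titles of sir2Δ library 8 at 15 µg/L and of WT libraries 1 and 1R carry the tag RESUB, and no other title does. The labels do not give its meaning.

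Ammonium permeases of the Mep/Amt/Rh family are found from bacteria to animals, and yeasts use them to take up ammonium when it is scarce. In Saccharomyces cerevisiae the MEP genes are under nitrogen catabolite repression: the GATA factors Gln3 and Gat1 activate them when good nitrogen sources run low, and the kinase Npr1 and its target Par32 control the activity of the permeases at the membrane. Nicotinic acid is a vitamin from which NAD+ is made, and Sir2 is a protein deacetylase that uses NAD+ and silences chromatin. The title of the series asks about Sir2 as a sensor of low NAD+, and MEP3 is described here across that design.

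The libraries held 24663143 to 38246270 counted reads (median 33734530), with 1.36% to 10.6% of reads in ribosomal RNA. SIR2 itself (KLLA0_F14663g) had 0.687 to 2.64 CPM (reads scaled to a common library total with TMM factors) in the 8 sir2Δ libraries and 105 to 147 CPM in the 9 WT libraries. The α genes are listed under the names of their HML copies, and a MATα strain carries them at the mating-type locus. HMLALPHA1 had 72.1 to 79.9 CPM in sir2Δ libraries and 0.249 to 1.56 CPM in WT libraries, and HMLALPHA2 had 19.0 to 26.3 CPM in sir2Δ libraries and 0.0567 to 0.503 CPM in WT libraries, so the SIR2 and mating-type labels matched in all 17 libraries, and the deletion of HML was not checked. Across genes, the log2 CPM of replicates gave Pearson's r of 0.992 to 0.998, but WT library 1 at 400 µg/L gave 0.961 with library 1R and 0.965 with library 2. Libraries 1 and 1R share a number, so their reads were summed and counted as 1 replicate.

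MEP3 was at its highest in sir2Δ cells at the lowest level of nicotinic acid. At 15 µg/L its level was 309.7 CPM in sir2Δ library 7 and 333 CPM in sir2Δ library 8, from 9275 and 11154 reads. At 45 µg/L, sir2Δ libraries 5 and 6 had 149 and 132 CPM. These values lie close to those of sir2Δ cells at 135 µg/L, where libraries 3 and 4 had 119.9 and 129 CPM, and at 400 µg/L, where libraries 1 and 2 had 139 and 124 CPM. In sir2Δ cells, then, the 2 libraries at 15 µg/L stood apart, and the 6 libraries at the other levels overlapped in a range of 119.9 to 149 CPM.

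In WT cells MEP3 was at its highest at 400 µg/L. WT libraries 7 and 8 at 15 µg/L had 98.0 and 111 CPM, and WT libraries 5 and 6 at 45 µg/L had 100.2 and 92.8 CPM. At 135 µg/L, WT libraries 3 and 4 had 142 and 145 CPM. At 400 µg/L, WT library 1 had 154 CPM, library 1R had 212 CPM and library 2 had 183 CPM. The WT libraries at 15 and 45 µg/L overlapped with each other and were lower than every WT library at 135 and 400 µg/L, and no library at 135 µg/L reached the lowest one at 400 µg/L.

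**Figure D1:**
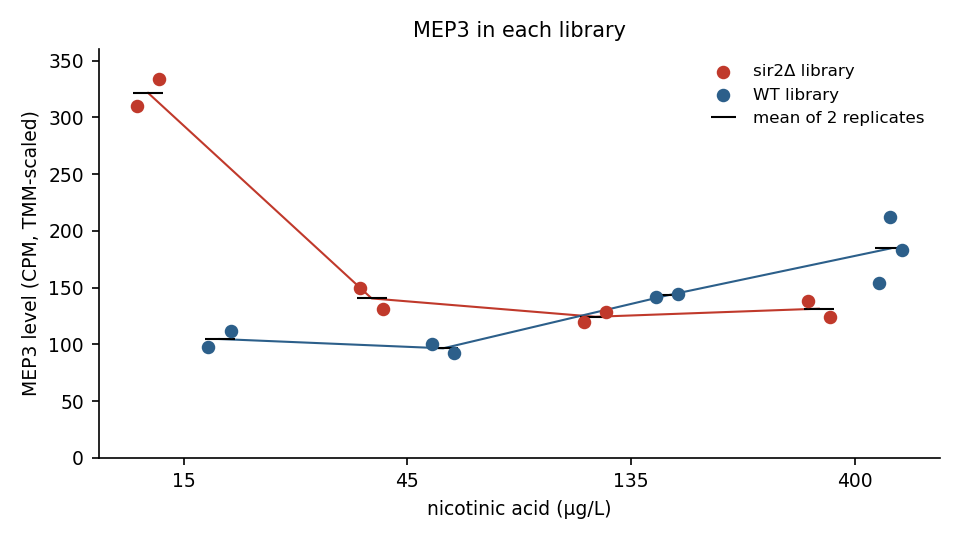
MEP3 level in CPM (vertical axis, TMM-scaled) in each library (points) by nicotinic acid level in µg/L, with sir2Δ left of WT at each level; bars are means over 2 replicates, with WT libraries 1 and 1R at 400 µg/L summed for the mean, and lines join the means of a strain. The 2 sir2Δ libraries at 15 µg/L, at 309.7 and 333 CPM, are above all others, and the WT libraries at 15 and 45 µg/L are the lowest.

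As means over 2 replicates, MEP3 had 322 ± 16.8 CPM at 15 µg/L, 140.5 ± 12.6 CPM at 45 µg/L, 124 ± 6.17 CPM at 135 µg/L and 131 ± 10.1 CPM at 400 µg/L in sir2Δ cells (SD, n = 2 each). In WT cells the means were 105 ± 9.48 CPM at 15 µg/L, 96.5 ± 5.25 CPM at 45 µg/L, 143 ± 2.14 CPM at 135 µg/L and 184 ± 2.10 CPM at 400 µg/L (SD, n = 2 each). In order of their means, sir2Δ at 15 µg/L came first, WT at 400 µg/L followed at a gap of 124 CPM between the nearest replicates, and WT at 135 µg/L lay a further 38.4 CPM below. The 4 groups WT at 135 µg/L and sir2Δ at 45, 400 and 135 µg/L overlapped each with the next in the order. WT at 15 µg/L lay 8.52 CPM below them and overlapped with WT at 45 µg/L, which was the lowest group. For WT at 400 µg/L, libraries 1 and 1R were summed, so the SD of 2.10 and the gap of 38.4 CPM leave out their spread. Apart, library 1 had 154 CPM and library 1R 212 CPM, and the higher WT library at 135 µg/L had 145 CPM.

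Set against its own strain at 400 µg/L, MEP3 stood at 245% at 15 µg/L, 107% at 45 µg/L and 94.6% at 135 µg/L in sir2Δ cells. The same shares in WT cells were 56.8% at 15 µg/L, 52.3% at 45 µg/L and 77.5% at 135 µg/L. As a share of WT at the same level, sir2Δ cells had 307% at 15 µg/L, 146% at 45 µg/L, 86.9% at 135 µg/L and 71.2% at 400 µg/L. The order of the strains was therefore opposite at the ends of the range, with sir2Δ above WT at 15 and 45 µg/L and below it at 135 and 400 µg/L, and the replicates of the 2 strains did not overlap at any of the 4 levels.

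In the model fitted over all groups, the log2 fold change of MEP3 at 15 against 400 µg/L was 1.29 ± 0.09 (SE) in sir2Δ cells and -0.82 ± 0.09 in WT cells. At 45 against 400 µg/L it was 0.10 ± 0.09 in sir2Δ cells and -0.93 ± 0.09 in WT cells. At 135 against 400 µg/L it was -0.08 ± 0.09 in sir2Δ cells and -0.37 ± 0.09 in WT cells. The sir2Δ values at 45 and 135 µg/L were within about 1 SE of 0, while the WT values at 15 and 45 µg/L differed from each other by little more than 1 SE.

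Between the strains, the log2 fold change of sir2Δ against WT was 1.62 ± 0.09 (SE) at 15 µg/L, 0.54 ± 0.09 at 45 µg/L, -0.20 ± 0.09 at 135 µg/L and -0.49 ± 0.09 at 400 µg/L. The difference between the strains in the response to 15 against 400 µg/L was 2.11 ± 0.13 on the log2 scale, a 4.31-fold difference. At 45 against 400 µg/L this difference was 1.03 ± 0.13, and at 135 against 400 µg/L it was 0.29 ± 0.13. The comparisons against 400 µg/L share the libraries at that level, so these values are not independent of each other.

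**Figure D2:**
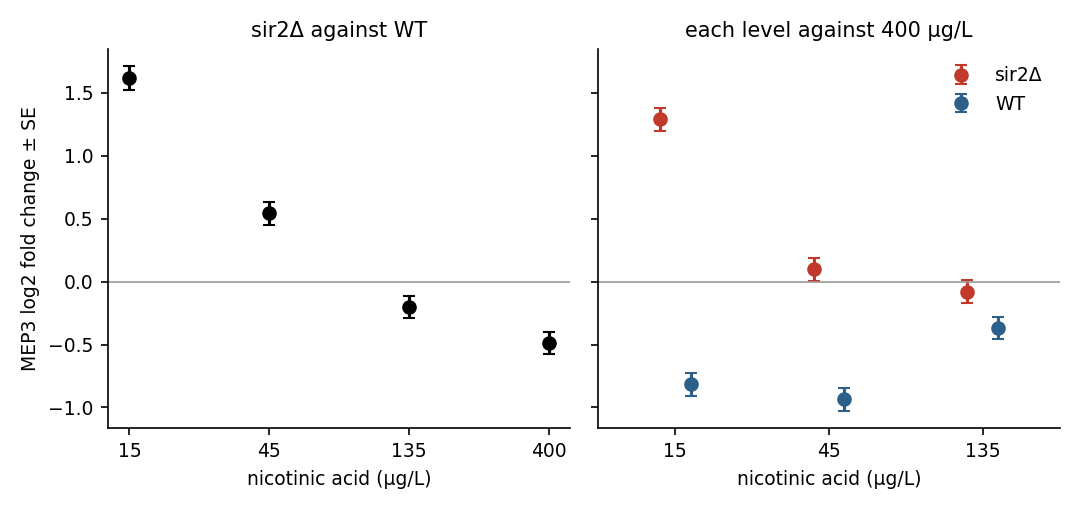
Log2 fold change of MEP3 (vertical axis; points, with bars for the SE of the fit) by nicotinic acid level in µg/L, on the left for sir2Δ against WT at each level and on the right for each lower level against 400 µg/L within sir2Δ and within WT. The strain difference is lower at each higher level, with 1.62 at 15 µg/L and -0.49 at 400 µg/L, and the 2 strains lie on opposite sides of 0 at 15 against 400 µg/L.

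WT library 1 at 400 µg/L, which stood apart across genes, also had the lowest MEP3 level of its group. Its MEP3 level was below the mean of libraries 1R and 2 by a log2 difference of -0.36, while the 500 coding genes nearest to MEP3 in coding length had a median difference of -0.04, with an interquartile range of -0.20 to 0.12. Of those genes, 15.2% had a lower value than MEP3. With library 1R alone as replicate 1, the WT fold change at 15 against 400 µg/L was -0.91 and the difference between strains 2.20. With library 1 alone as replicate 1, these values were -0.70 and 1.99, so the opposite signs of the 2 strains held with either library.

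Among the 5224 genes, MEP3 had the 6th highest difference between strains in the response to 15 against 400 µg/L. Its fold change at 15 against 400 µg/L was the 20th highest in sir2Δ cells and the 38th lowest in WT cells. These ranks follow from the choice of the gene and support nothing further. The difference between strains was called at an adjusted p under 0.05 (edgeR quasi-likelihood test, Benjamini-Hochberg over all genes) in 17.2% of genes, the fold change at 15 against 400 µg/L in 17.6% in sir2Δ cells and in 26.1% in WT cells.

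Genes with calls of opposite sign in the 2 strains were few. At 15 against 400 µg/L, 27 genes (0.517% of those tested) were called higher in sir2Δ cells and lower in WT cells. The other way round were 25 genes (0.479%), and 298 (5.7%) were called in the same direction in both strains. MEP3 is among the 27 by the fold changes it was chosen for, so its place and rank there are a description and no test. The 2 dose comparisons share no libraries. The count of 27 was 11 or 12 without either sir2Δ replicate at 400 µg/L, sir2Δ replicate 8 at 15 µg/L, WT replicate 1 at 400 µg/L or either WT replicate at 15 µg/L, and 61 with upper-quartile scaling. Of the 27, MEP3 had the next largest difference after ACS1, which encodes an acetyl-CoA synthetase, with 1.92 in sir2Δ cells and -1.10 in WT cells (log2), and KLLA0_B09064g, with 1.63 in sir2Δ cells and -0.50 in WT cells. Next after MEP3 came CGR1, with 1.09 in sir2Δ cells and -0.77 in WT cells, and NOP19, with 1.08 in sir2Δ cells and -0.72 in WT cells, both genes of ribosome assembly in S. cerevisiae. The order is loose, since ACS1 had 202 and 443 CPM in sir2Δ libraries 7 and 8 at 15 µg/L (difference 3.02 ± 0.45, SE). CGR1 had 22.2 and 12.9 CPM in the WT replicates at 400 µg/L, and the group means of NOP19 were 1.88 to 6.42 CPM.

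**Figure D3:**
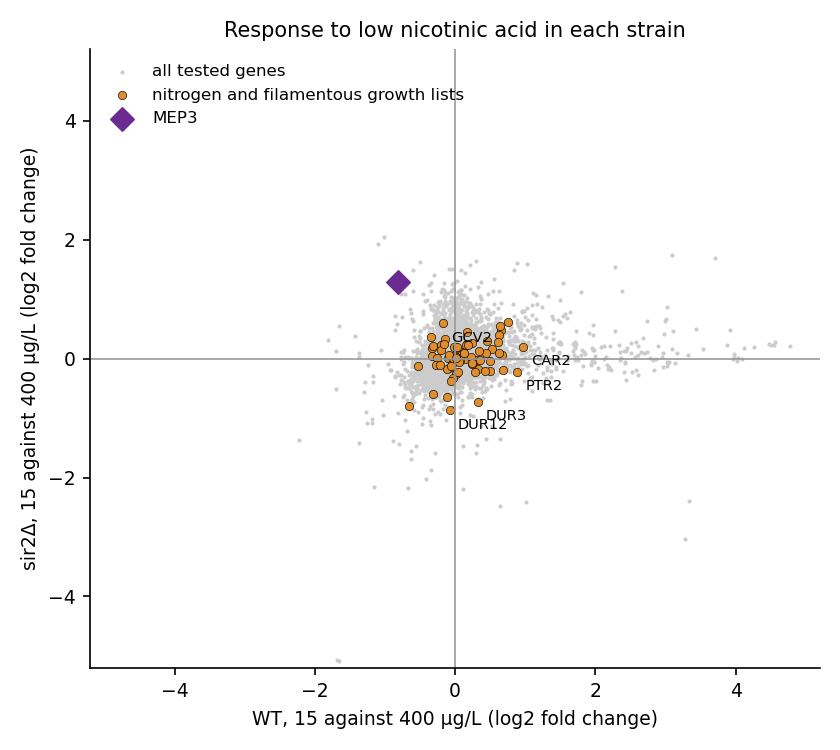
Log2 fold change at 15 against 400 µg/L in sir2Δ cells (vertical axis) and in WT cells (horizontal axis) for the 5224 tested genes (grey), the 72 tested members of the nitrogen and filamentous growth lists (orange) and MEP3 (diamond). MEP3 lies in the upper left at 1.29 and -0.82, where few genes are found, and the list members lie nearer to the centre.

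In absolute terms MEP3 was a well expressed gene. Scaled to coding length (TPM over 5084 protein-coding genes, the scale on which different genes can be compared), MEP3 had 225 and 257 TPM in sir2Δ cells at 15 µg/L, above 87.6% and 88.7% of coding genes. Its lowest value was 72.6 TPM in WT library 6 at 45 µg/L, above 64.3% of coding genes. Each value rested on at least 3079 reads, so the counting error of a library was 0.947% to 1.80%, well below the spread between most replicates.

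The measured genes of the list for ammonium assimilation, which covers the metabolism of glutamate and glutamine, did not pass the test at 15 against 400 µg/L in the analysis reported. Of the 5 names listed for ammonium assimilation, 4 were measured: GDH2 (NAD-dependent glutamate dehydrogenase), GDH3 (NADP-dependent glutamate dehydrogenase), GLN1 (glutamine synthetase) and GLT1 (glutamate synthase). None of the 4 passed the test at 15 against 400 µg/L in either strain or in the difference between strains. In that difference their log2 values were 0.07 ± 0.15 for GDH2, 0.16 ± 0.14 for GDH3, -0.33 ± 0.14 for GLN1 and -0.32 ± 0.16 for GLT1 (SE). Over all genes, 17.6% were called in sir2Δ cells, 26.1% in WT cells and 17.2% in the difference, so a list of 4 says little. With DESeq2, 1 of the 4 was called lower in the difference. With upper-quartile scaling, 1 was called higher in sir2Δ cells. GLN1 at 2319 to 2979 TPM and GDH3 at 522 to 1118 TPM were more abundant than MEP3 at 72.6 to 257 TPM in every library, while GLT1 spanned 114 to 270 TPM and GDH2 60.8 to 102 TPM.

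Between the strains, GDH3 was higher in sir2Δ cells at both ends of the range. At 15 µg/L it had 1555 and 1474 CPM in sir2Δ libraries and 766 and 877 CPM in WT libraries, a log2 fold change of 0.88 ± 0.10 (edgeR adjusted p = 8.71e-06), where 30.7% of all genes were called. At 400 µg/L its log2 fold change was 0.72 ± 0.10 (edgeR adjusted p = 2.31e-05) and that of GLT1 0.55 ± 0.11 (edgeR adjusted p = 0.000802), where 44.7% of all genes were called. GLN1 was also called at 400 µg/L, with 0.33 ± 0.10 (edgeR adjusted p = 0.0103), a call that was lost without sir2Δ replicate 2 (adjusted p = 0.0649) or WT replicate 2 (0.0699), with library 1 alone (0.0531), with upper-quartile scaling (0.0673) and with library totals alone (0.507). MEP3 at 400 µg/L was below WT, with -0.49.

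Of 27 names listed as nitrogen regulators, 21 were measured, and at 15 against 400 µg/L only DAL81, a coactivator of nitrogen catabolic genes in S. cerevisiae, was called in the difference between strains (called higher in 7.5% and lower in 9.71% of all genes). Its log2 value was 0.52 ± 0.17 (edgeR adjusted p = 0.0424), but the call was lost in 13 of the alternatives, among them those without either replicate of any group at 15, 135 or 400 µg/L except WT replicate 1 at 400 µg/L (adjusted p 0.0517 to 0.156). With upper-quartile scaling, with library totals alone or with library 1R alone 4 regulators were called higher, and with DESeq2 2 higher and 1 lower. The median of the list was 0.04, against 0.01 over all genes. The activators named above gave -0.16 ± 0.17 for GLN3 and -0.03 ± 0.11 for GAT1, their repressor URE2 gave 0.33 ± 0.16, the kinase gene NPR1 gave -0.07 ± 0.09 and PAR32 gave -0.32 ± 0.13, none of them past the test.

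Within the strains, 2 regulators were called higher and 1 lower at 15 against 400 µg/L in sir2Δ cells, where 11.6% of all genes were called higher and 6.09% lower. In WT cells, 3 were called higher and 2 lower, where 15.8% of all genes were called higher and 10.3% lower. SSY5, a protease gene of the amino acid sensor, was called higher in both, with 0.62 ± 0.11 in sir2Δ cells (edgeR adjusted p = 0.000744) and 0.75 ± 0.11 in WT cells (edgeR adjusted p = 5.63e-05), and its difference between strains, -0.13 ± 0.15, did not pass the test. GCN4, the activator of amino acid synthesis, had 0.28 ± 0.09 in sir2Δ cells (edgeR adjusted p = 0.0361) and 0.61 ± 0.09 in WT cells (edgeR adjusted p = 5.71e-05). Its difference between strains did not pass the test either. The GCN4 call in sir2Δ cells was lost in 11 alternatives, among them those without either sir2Δ replicate at 15 or 400 µg/L or without either replicate of a strain at 135 µg/L (adjusted p 0.0542 to 0.188).

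PAR32 was the regulator called lower in sir2Δ cells at 15 against 400 µg/L, with -0.39 ± 0.09 (edgeR adjusted p = 0.00833), and the call was lost without sir2Δ replicate 2 at 400 µg/L (0.0836) or sir2Δ replicate 7 at 15 µg/L (0.0615). In WT cells UGA3, an activator of γ-aminobutyrate use, was called lower with -0.52 ± 0.10 (edgeR adjusted p = 0.000723). NPR2, a part of an inhibitory complex upstream of TORC1, was called higher in WT cells with 0.45 ± 0.11 (edgeR adjusted p = 0.00705), which was lost without WT replicate 8 at 15 µg/L (0.0613) and with library totals alone (0.0688). The phosphatase gene SIT4 was called lower with -0.27 ± 0.08 (edgeR adjusted p = 0.0194), which was lost without WT replicate 1 at 400 µg/L (0.199) or WT replicate 7 (0.0807) or 8 (0.084) at 15 µg/L, and in the fit over the groups at 15 and 400 µg/L alone (0.0506).

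Regulators were also compared between sir2Δ and WT cells at a single level. At 400 µg/L, 3 were called higher and 6 lower in sir2Δ than in WT cells, where 22.5% of all genes were called higher and 22.3% lower, and at 15 µg/L 1 was called higher and 2 lower, where 14.7% of all genes were called higher, and 837 of 5224 genes were called lower. PUT3, the activator of proline use, was lower at 400 µg/L with -0.73 ± 0.14 (edgeR adjusted p = 0.000516), and DAL81 with -0.58 ± 0.12 (edgeR adjusted p = 0.00082; 0.0553 with library 1 alone). PAR32 was higher at 400 µg/L with 0.45 ± 0.09 (edgeR adjusted p = 0.000912) and GCN4 with 0.33 ± 0.09 (edgeR adjusted p = 0.00515), and both calls were lost with library totals alone (0.171 for PAR32 and 0.542 for GCN4), a scaling that moved the median of all genes to -0.27 in this comparison.

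The other regulators called between the strains had smaller or less stable values. At 400 µg/L, SIT4 had -0.30 (edgeR adjusted p = 0.00533; 0.0674 without WT replicate 1), DAL82, a second coactivator of allantoin use, had -0.47 (edgeR adjusted p = 0.0132; 0.133 without sir2Δ replicate 2, 0.13 without WT replicate 2, and -0.11 with 0.817 with library 1 alone), URE2 had -0.28 (edgeR adjusted p = 0.0475), GAT1 had -0.20 (edgeR adjusted p = 0.0373) and NPR1 had 0.18 (edgeR adjusted p = 0.032). The calls of URE2, GAT1 and NPR1 at 400 µg/L were each lost when any of several single replicates was left out, of URE2 with -0.08 (adjusted p = 0.584) without WT replicate 1, of GAT1 with -0.13 (0.269) without WT replicate 2 and of NPR1 with 0.17 (0.122) without sir2Δ replicate 1. At 15 µg/L, UGA3 had 0.38 (edgeR adjusted p = 0.00709; 0.0895 without WT replicate 8), GAT1 had -0.23 (edgeR adjusted p = 0.0279; 0.0535 to 0.163 without any 1 of the 4 replicates at 15 µg/L) and DAL82 had -0.40 (edgeR adjusted p = 0.0417; 0.122 to 0.256 without either sir2Δ replicate or without WT replicate 7). The remaining 9 measured regulators, GLN3, TOR1, KOG1, IML1, LST8, TAP42, NPR3, SSY1 and PTR3, were not called in any of the 5 comparisons.

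Permeases for other nitrogen compounds that passed the test of the difference between strains had negative values, where MEP3 had a positive one. Of 27 names for amino acid, peptide, urea and nucleobase permeases, 15 were measured; in the difference between strains 6 were called lower and 0 higher, where 9.71% of all genes were called lower and 7.5% higher, and the median was -0.28 (log2), against 0.01 over all genes. The 6 were PTR2 (dipeptides and tripeptides) with -1.10 ± 0.20, DUR3 (urea) with -1.04 ± 0.12, OPT1 and OPT2 (oligopeptides) with -0.71 ± 0.15 and -0.52 ± 0.14, MUP3 (methionine) with -0.63 ± 0.12, and FUR4 (uracil) with -0.53 ± 0.12; roles are those known in S. cerevisiae. The count was 1 higher and 6 lower with upper-quartile scaling and 1 higher and 3 lower with library totals alone, scalings that moved the median of all genes to 0.10 and 0.18 and the share of higher calls among all calls to 61.2% and 68.9%, against 43.6%.

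PTR2 had 48.5 and 43.0 CPM at 15 µg/L and 55.1 and 51.3 CPM at 400 µg/L in sir2Δ cells, and 68.6 and 61.7 CPM at 15 µg/L and 32.3 and 38.5 CPM at 400 µg/L in WT cells. Its replicates did not overlap between levels in either strain, and it passed the test in WT cells, with 0.88 ± 0.14 (edgeR adjusted p = 0.00016), but not in sir2Δ cells, with -0.22 ± 0.14. DUR3 had 77.8 and 78.2 CPM at 15 µg/L and 134 and 124 CPM at 400 µg/L in sir2Δ cells, and 117 and 132 CPM at 15 µg/L and 96.6 and 103 CPM at 400 µg/L in WT cells. DUR3 fell in sir2Δ cells, with -0.72 ± 0.09 (edgeR adjusted p = 3.28e-05), and was called higher in WT cells, with 0.32 ± 0.09 (edgeR adjusted p = 0.0115), a call lost without WT replicate 1 at 400 µg/L (0.0833) or WT replicate 8 at 15 µg/L (0.13) and with library totals alone (0.166).

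The difference between strains had an adjusted p (edgeR) of 0.000869 for PTR2, 1.28e-05 for DUR3 and 0.0035 for OPT1, and these 3 calls held in every alternative run. It was 0.00202 for MUP3 and 0.00477 for FUR4, both lost only with library totals alone (0.0657 for MUP3 and 0.0992 for FUR4). OPT2 had 0.0207, which was lost without replicate 1 at 400 µg/L of sir2Δ (0.083) or WT (0.0587), without replicate 7 at 15 µg/L of sir2Δ (0.0996) or WT (0.0793), with library totals alone (0.184) and with libraries 1 and 1R apart (0.0685). Within the strains, the permease list had 2 called higher and 4 lower at 15 against 400 µg/L in sir2Δ cells (11.6% and 6.09% of all genes), and 6 higher and 2 lower in WT cells (15.8% and 10.3% of all genes). With library totals alone the WT counts were 4 higher and 3 lower.

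Genes that break down nitrogen compounds were mixed. Of 31 names, 23 were measured; in the difference between strains 2 were called higher and 6 lower, where 7.5% of all genes were called higher and 9.71% lower, and the median was -0.07 against 0.01 over all genes. With library totals alone the counts turned to 4 higher and 2 lower, so no direction of the list is given. CAR2, ornithine aminotransferase, had 145 and 131 CPM at 15 µg/L and 124 and 116 CPM at 400 µg/L in sir2Δ cells, and 112 and 108 CPM at 15 µg/L and 59.1 and 53.3 CPM at 400 µg/L in WT cells. The CAR2 replicates at 15 µg/L were above those at 400 µg/L in both strains, by 0.20 ± 0.08 in sir2Δ cells, which did not pass the test, and by 0.96 ± 0.08 in WT cells (edgeR adjusted p = 1.15e-07), a difference between strains of -0.76 ± 0.11 (edgeR adjusted p = 0.000157).

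GCV2, a subunit of the glycine decarboxylase, moved in the same direction as MEP3, with 199 and 196 CPM at 15 µg/L and 127 and 134 CPM at 400 µg/L in sir2Δ cells, and 170.3 and 159.5 CPM at 15 µg/L and 185 and 187 CPM at 400 µg/L in WT cells. It rose in sir2Δ cells, with 0.60 ± 0.08 (edgeR adjusted p = 8.74e-05), and had -0.17 ± 0.08 in WT cells, which did not pass the test; the difference between strains was 0.77 ± 0.11 (edgeR adjusted p = 0.000158). DUR12, which joins urea carboxylase and allophanate hydrolase, fell in sir2Δ cells with -0.87 ± 0.09 (edgeR adjusted p = 1.04e-05) and had -0.08 ± 0.09 in WT cells, a difference of -0.79 ± 0.13 (edgeR adjusted p = 0.000348). The differences of CAR2, GCV2 and DUR12 were called in every alternative run.

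Of the other catabolic genes, ASP1, an asparaginase, had a difference between strains of 0.71 ± 0.17 (edgeR adjusted p = 0.00966; 0.0636 without sir2Δ replicate 2 at 400 µg/L). ARO10, a decarboxylase of aromatic amino acid breakdown, had -0.61 ± 0.12 (edgeR adjusted p = 0.00214; 0.0651 with library totals alone). DAL3, of allantoin breakdown, had -0.88 ± 0.28 (edgeR adjusted p = 0.0412), and its call was lost in 14 alternatives, with adjusted p from 0.0554 to 0.184 when a replicate was left out (either sir2Δ replicate at 400 or 135 µg/L, sir2Δ replicate 8, WT replicate 2 at 400 µg/L, either WT replicate at 135 µg/L or WT replicate 8).

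Ammonium permeases also take part in filamentous growth in S. cerevisiae, where a related permease acts upstream of a G protein. Of 13 names for filamentous growth, 9 were measured, and 1 was called in the difference between strains, with a list median of -0.26. This was GPA2, a G protein α subunit, with -0.49 ± 0.15 (edgeR adjusted p = 0.0268), and its call was lost without replicate 1 at 400 µg/L of sir2Δ or WT, without sir2Δ replicate 8 or WT replicate 7 (adjusted p 0.0902 to 0.14), and in 4 other alternatives (0.051 to 0.169). Over the 5 lists, 72 of 103 names were tested, of which 3 were called higher and 13 lower in the difference between strains, where 17.2% of all genes were called, 7.5% higher and 9.71% lower. The counts were 10 higher and 5 lower with library totals alone. The symbols MEP1 and MEP2 matched no gene in the reference table, and other ammonium permeases were not analysed here.

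MEP3 lies on chromosome B as gene 483 from one end and gene 175 from the other of the 657 genes in the reference table, with a coding length of 1362 bases, so it is not near a chromosome end. All 5 genes on each side were tested. In the difference between strains, 6 of these 10 neighbours were called higher and 0 lower, with a median log2 value of 0.42, while 7.5% of all genes were called higher. All 6 had values below that of MEP3, whose own value was chosen.

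The neighbours with the highest values were RRP15, 5 genes away, and RRP9, 2 genes away on the other side, both genes of ribosomal RNA processing. RRP15 had 24.98 and 26.2 CPM at 15 µg/L and 12.6 and 13.8 CPM at 400 µg/L in sir2Δ cells, and 43.9 and 37.97 CPM at 15 µg/L and 40.3 and 43.4 CPM at 400 µg/L in WT cells. It rose in sir2Δ cells, with 0.96 ± 0.11 (edgeR adjusted p = 2.25e-05), and not past the test in WT cells, with -0.03 ± 0.10, but unlike MEP3 it was lower in sir2Δ than in WT cells at both levels. The difference between strains was 0.99 ± 0.15 for RRP15 (edgeR adjusted p = 0.000196) and 0.86 ± 0.15 for RRP9 (edgeR adjusted p = 0.000598).

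The genes directly beside MEP3 differed from each other. KLLA0_B11011g, on one side, had a difference between strains of 0.56 ± 0.17 (edgeR adjusted p = 0.0353), and KLLA0_B11055g, on the other, had -0.19 ± 0.12, which did not pass the test. The call of KLLA0_B11011g was lost with library 1 alone (edgeR adjusted p = 0.0786). It was also lost without either sir2Δ replicate at 15 or 400 µg/L, WT replicate 1 at 400 µg/L or WT replicate 7 at 15 µg/L (log2 0.38 to 0.58). TAZ1, a cardiolipin remodelling enzyme in S. cerevisiae, had 0.58 ± 0.14 (edgeR adjusted p = 0.00973), LOA1, an acyltransferase gene, 0.41 ± 0.11 (edgeR adjusted p = 0.0181) and NUP57, a nucleoporin gene, 0.42 ± 0.10 (edgeR adjusted p = 0.00744), while KAR3 (a kinesin), CTF4 (DNA replication) and COG2 (Golgi transport) had 0.03, -0.11 and -0.08 and were not called. LOA1 and KLLA0_B11011g overlap in the reference table, so the 2 may share reads. The count of 6 was the same under the 3 other scalings; it was 3 without sir2Δ replicate 2 at 400 µg/L or without WT replicate 7 at 15 µg/L, and 4 without sir2Δ replicate 8 at 15 µg/L. The calls lost there were those of KLLA0_B11011g, TAZ1 and LOA1 (adjusted p 0.054 to 0.186).

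**Figure D4:**
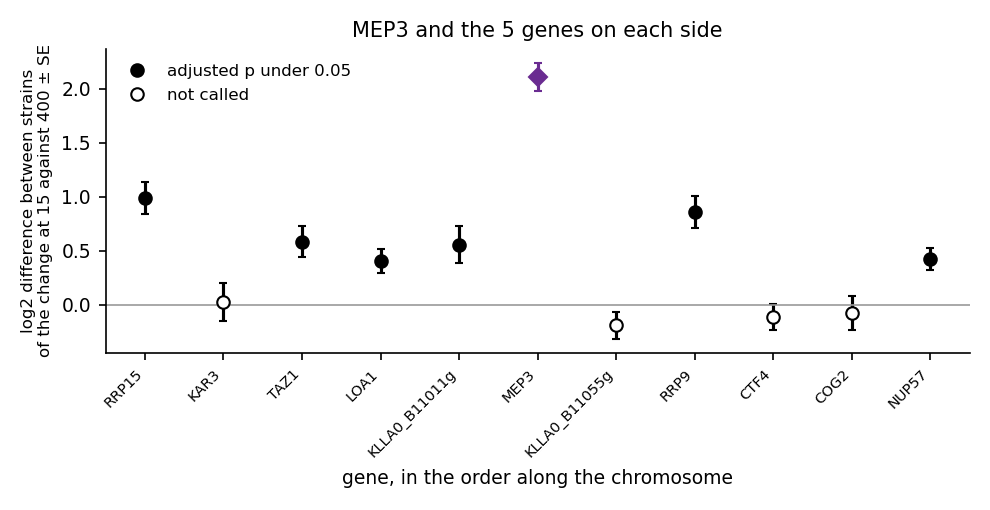
Difference between strains in the log2 fold change at 15 against 400 µg/L (vertical axis; points, with bars for SE) for MEP3 (diamond, not tested) and the 5 genes on each side in their order along the chromosome; filled points were called at an adjusted p under 0.05. MEP3 at 2.11 lies above all 10 neighbours, of which the highest, RRP15, is at 0.99.

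In the other comparisons the neighbours had 5 called higher and 0 lower at 15 against 400 µg/L in sir2Δ cells (11.6% and 6.09% of all genes), and 1 higher and 1 lower in WT cells (15.8% and 10.3% of all genes). In sir2Δ against WT cells 1 was called higher and 4 lower at 15 µg/L, where 30.7% of all genes were called, and 1 higher and 7 lower at 400 µg/L (22.5% and 22.3% of all genes). MEP3 was above WT at 15 µg/L, where most of its called neighbours were below it. Of the 5 calls in sir2Δ cells, those of LOA1, CTF4 and NUP57 were lost with libraries 1 and 1R apart (edgeR adjusted p 0.0625, 0.0896 and 0.06). These calls were also lost without sir2Δ replicate 1 at 400 µg/L or sir2Δ replicate 7 at 15 µg/L. With library totals alone 3 neighbours were called higher in sir2Δ cells.

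The genes with profiles most like that of MEP3 were sought by the Pearson correlation of log2 CPM over the 8 group means, among the other 5223 tested genes. The 10 highest were AIM23 (r = 0.915), MTM1 (0.911), TAO3 (0.908), JNM1 (0.902), HTA1 (0.891), KLLA0_B07425r (0.885), BUD13 (0.874), RTR1 (0.870), VPS4 (0.868) and TAF3 (0.864). These correlations are a description over 8 points that share libraries and scaling, and KLLA0_B07425r rested on few reads, with group means of 0.171 to 0.370 CPM. Of the 10, 5 were also among the 10 highest by the correlation over the 16 columns, and 3 among the 10 nearest by the distance between centred profiles. Only 1 was among the 10 by every measure.

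Like MEP3, the 10 genes had their highest mean log2 CPM in sir2Δ cells at 15 µg/L, but their profiles were smaller in size. Over the WT levels they were not all alike. In WT cells at 15 and 400 µg/L the centred means were -0.47 and 0.35 for MEP3, -0.31 and 0.22 for JNM1, and -0.08 and -0.01 for RTR1. The 8 group means of MEP3 spanned 1.74 on the log2 scale, and those of the 10 genes had a median span of 0.49. BUD13, a splicing factor gene in S. cerevisiae, had 0.64 at 15 against 400 µg/L in sir2Δ cells and -0.29 in WT cells, and HTA1, a histone H2A gene, had 0.27 in sir2Δ cells and -0.23 in WT cells. By the distance between centred profiles, which also counts size, KLLA0_D07414g (root mean square distance 0.263) and CAT2, a carnitine acetyltransferase gene (0.294), were nearest, with 1.10 and 0.57 at 15 against 400 µg/L in sir2Δ cells and -0.13 and -0.41 in WT cells.

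**Figure D5:**
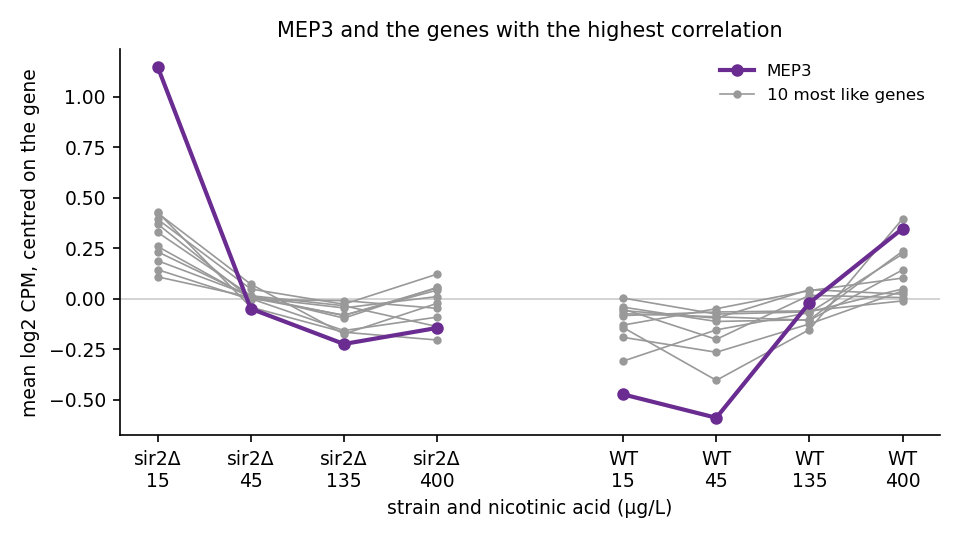
Mean log2 CPM of each group minus the gene's own mean (vertical axis) by strain and nicotinic acid level in µg/L, for MEP3 (thick line) and the 10 genes with the highest correlation over the 8 group means (thin lines). All are highest in sir2Δ cells at 15 µg/L or close to it, and MEP3 spans 1.74 while the others have a median span of 0.49.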

How the data were processed

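Poly(A) RNA of K. lactis was sequenced as paired-end reads of 150 bp, per the labels' protocols. The authors deposited whole-number read counts for 5335 genes in 17 libraries. Per the submitters' processing notes, reads were handled with cutadapt, Bowtie2, SAMtools, featureCounts and DESeq2, and checked with FastQC and MultiQC; versions, build and strand setting were not given in the sources used here. The authors also deposited a normalized signal, which equalled the counts divided by 1 size factor per library to within 4.7e-09 reads and was used for this check only. Gene names and coding lengths came from a reference table of ASM251v1, in which all 5335 identifiers matched.

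Genes were tested with edgeR 4.0.16 (with limma 3.58.1, R 4.3.3; robust quasi-likelihood test, TMM, filterByExpr at a minimum count of 10, 1 mean for each of 8 groups over 16 columns, 8 residual degrees of freedom), with Benjamini-Hochberg adjustment over 5224 genes and calls at 0.05. The method was run on simulated data with the same spread for every gene and no outlying library. That run is therefore no check of the calls in these data. Alternatives included DESeq2 1.42.0, 3 other scalings and each replicate left out. The named genes were MEP3, all measured members of the assimilation and regulator lists, up to 6 (filamentous growth 4) of each other list with the largest called difference between strains, the 5 genes on each side and the 10 most alike; ACS1, KLLA0_B09064g, CGR1, NOP19, KLLA0_D07414g and CAT2 were chosen after their values were seen. The genes, lists and tests were chosen with earlier results of these data known. Lists use S. cerevisiae names, and genes without a symbol could not enter them.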

Additional observations from a re-analysis of the deposited data

Results flagged for a closer look

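The response of MEP3 to 15 against 400 µg/L differed between the strains, with a log2 difference of 2.11 and every sir2Δ replicate at 15 µg/L above and every WT replicate at 15 µg/L below those of its own strain at 400 µg/L. This difference was not tested, since the gene was chosen for it.

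Among the listed nitrogen and filamentous growth genes that are named, 14 passed the edgeR test of the difference between strains at an adjusted p under 0.05. Permease, catabolism and filamentous growth genes were named only if they passed it, up to a set number per list. The count of 14 is therefore no result about the lists. Of all 72 tested list members, 3 were called higher and 13 lower, where 7.5% of all genes were called higher and 9.71% lower. Higher in sir2Δ than in WT cells were the responses of GCV2 (0.766), ASP1 (0.706) and DAL81 (0.516). Lower were those of PTR2 (-1.1), DUR3 (-1.04), DAL3 (-0.882), DUR12 (-0.789), CAR2 (-0.762), OPT1 (-0.706), MUP3 (-0.626), ARO10 (-0.606), FUR4 (-0.528), OPT2 (-0.516) and GPA2 (-0.494). The calls of DAL81, DAL3, OPT2 and GPA2 were the ones lost in the most alternatives.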

How the results depend on the processing

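The 5 main MEP3 values kept their sign in all alternatives run. Leaving out 1 replicate gave log2 values of 2.01 to 2.20 for the difference between strains (15 against 400 µg/L), 1.53 to 1.71 for sir2Δ against WT at 15 µg/L, -0.57 to -0.41 at 400 µg/L, 1.21 to 1.37 for 15 against 400 µg/L in sir2Δ cells and -0.91 to -0.72 in WT cells. The same gave 643 to 996 genes called in the difference, 1041 to 1721 and 1722 to 2489 for sir2Δ against WT at 15 and 400 µg/L, 469 to 1062 in sir2Δ cells and 841 to 1500 in WT cells; of list members it gave 13 to 19, 14 to 26, 26 to 42, 9 to 16 and 18 to 30 in the same order, and 11 to 40 genes called higher in sir2Δ and lower in WT cells (27 in the analysis reported). MEP3 at 135 against 400 µg/L in sir2Δ cells ranged over -0.16 to 0.00118, and was above 0 only without sir2Δ replicate 1 at 400 µg/L.

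With upper-quartile scaling the MEP3 difference between strains was 2.21 and its sir2Δ against WT value at 400 µg/L -0.59, and 61 genes were called higher in sir2Δ and lower in WT cells. With library totals alone the MEP3 values were 2.28 for the difference, 1.52 at 15 µg/L, -0.75 at 400 µg/L and -0.93 in WT cells, 60 genes were called in that way, and NPR1 reversed to -0.080 at 400 µg/L. These scalings also moved the share of higher calls in WT cells to 50.0% and 35.2%, against 60.4%. DESeq2 gave 44 genes called higher in sir2Δ and lower in WT cells. With libraries 1 and 1R as separate columns the counts were 570 for the difference, 444 in sir2Δ cells (9 list members), 976 for sir2Δ against WT at 15 µg/L (14) and 10 called higher in sir2Δ and lower in WT cells. With library 1 alone they were 572, 484 (9), 1029 (14) and 16, and the MEP3 values were 1.99, -0.38 at 400 µg/L and -0.70 in WT cells. With library 1R alone the MEP3 values were 2.20, -0.59 and -0.91. The causes were not tested.

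The replicate numbers were not taken to pair the cultures: over all genes, deviations of same-numbered cultures had correlations of 0.19, 0.32, -0.10 and -0.13 at 15, 45, 135 and 400 µg/L. For MEP3 alone, the lower minus the higher number had the same sign in both strains at all 4 levels (log2 -0.11 in sir2Δ and -0.18 in WT at 15, 0.18 and 0.11 at 45, -0.10 and -0.03 at 135, 0.16 and 0.02 at 400 µg/L). With the number as a replicate block, MEP3 gave 2.11 and 1159 genes were called in the difference, against 899. Crossing the WT numbers at 400 µg/L, chosen after seeing the data, gave 1191. Of 68 called values of named genes, 29 stayed called in every alternative. With 2 replicates a group, p-values rest on a spread shared over groups.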
